A study of Homo sapiens with 42 samples.

Results

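The genes described here are 52 genes of DNA replication and S phase, which run from the licensing of origins through helicase activation, strand synthesis and nucleotide supply to the rebuilding of chromatin behind the fork. They were picked by name for their roles and found by matching the gene symbol of each row of the count table. All 52 were found among 57353 gene names, each in a single row. A filter on low counts, which asked for a mean over the 42 libraries of no less than 1 count and 1 CPM (counts scaled to a common library total), left 12939 genes to test, and 51 of the 52 genes were among them. RNASEH2A, the catalytic subunit of the RNase H2 complex, did not pass. Its input level lay between 0 and 1.52 CPM in every culture, and 53.3% of its exon bases overlap those of THSD8.

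The cells were MOLM-13, a human acute myeloid leukemia (AML) line with an internal tandem duplication in the receptor tyrosine kinase FLT3. They were kept for 12 h in plain RPMI medium or in hBMSC-CM, a medium conditioned by human bone marrow stromal cells, which per the study's methods came from the HS-5 line. Per those methods the conditioned medium was mixed with RPMI, both media held serum, and cycloheximide was added shortly before harvest to halt translation. In RPMI the conditions were vehicle, quizartinib (AC220, a FLT3 inhibitor) at 3 nM, and the combination of 3 nM quizartinib with 10 nM everolimus (an inhibitor of mTOR complex 1), called combo. In hBMSC-CM they were vehicle, 10 nM everolimus alone, 3 nM quizartinib alone, and combo at these doses. No RPMI cultures with everolimus alone were analysed here. All 7 conditions used the same unmodified line, and each had 3 cultures. From every culture poly(A) RNA was sequenced from the whole lysate (input) and from heavy polysomes, the part of a gradient that holds transcripts loaded with many ribosomes. The comparisons ask how FLT3 inhibition moves these transcripts, how far the conditioned medium changes that effect, what mTOR inhibition adds, and whether the polysome share of a transcript moves apart from its level. The study calls its replicates biological, while the labels give only a number to each of the 3 cultures and do not say how they were started. P-values rest on the spread between replicate cultures, estimated for each gene over all 42 libraries of both fractions together. A p-value of an input comparison therefore also carries the spread of the polysome libraries. The main fit took the input and polysome libraries of a culture as separate and did not use the culture number.

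Library totals ran from 19.4 M to 37.2 M counts in input and from 21.5 M to 38.8 M in heavy polysomes. The 52 genes held 0.192% to 0.707% of input counts and 0.305% to 0.944% of polysome counts. The 6 myeloid markers checked (PTPRC, SPI1, CD33, FLT3, MPO and LYZ) all passed the filter and summed to between 1046 and 1671 CPM in input. Under quizartinib in RPMI PTPRC (log2 fold change 1.36 ± 0.42) and FLT3 (1.05 ± 0.26) were called higher (edgeR adjusted p = 0.0115 and 0.00168), and in hBMSC-CM 0 of the 6 were called. FLT3 was lower in hBMSC-CM than in RPMI, with log2 differences of -1.34 ± 0.26 without drug and -2.21 ± 0.27 under quizartinib (edgeR adjusted p = 0.00219 and 3.06e-07), where LYZ was higher (1.12 ± 0.23, adjusted p = 0.00104). The 10 stromal markers summed to 2.55 to 5.54 CPM in RPMI vehicle, 4.91 to 8.22 with quizartinib and 6.09 to 7.85 with combo. In hBMSC-CM they summed to 2.57 to 6.57 CPM with vehicle, 4.47 to 5.55 with everolimus, 7 to 8.22 with quizartinib and 6.61 to 9.02 with combo, with COL3A1 and THY1 at 0 in input libraries. Of these markers TAGLN, an actin-binding protein, was higher under quizartinib in RPMI and in hBMSC-CM (0.98 ± 0.31 and 1.02 ± 0.31, edgeR adjusted p = 0.0119 and 0.0255). The part of these markers in the results was not tested. Replicates of the everolimus condition lay closer together than those of other conditions. The median over the genes of the SD of the log2 ratio of polysome to input was 0.116 under everolimus and 0.383 to 0.495 elsewhere, and the everolimus cultures did not vary in step with the same-numbered cultures of the other conditions.

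Besides RNASEH2A, 9 of the 52 genes share more than 10% of their exon bases with other annotated genes, and whether counting used strand is not stated, so their counts are uncertain. The share is 47.9% for TYMS, 23.6% for MCM2, 23.4% for GINS4, 21.3% for POLA2, 21.1% for TIPIN, 19.1% for PRIM1, 14.5% for DUT, 10.9% for GINS3 and 10.6% for RFC5. The other genes are on the same strand or the opposite one, GPAT4-AS1 for GINS4, the pseudogene RPL9P25 for TIPIN, HSD17B6 and NACA for PRIM1, DUT-AS1 for DUT and WSB2 for RFC5 among them.

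A replication origin is licensed in G1 when ORC, CDC6 and CDT1 load the MCM2-7 helicase onto DNA, and geminin then blocks CDT1 so that origins fire only once. In S phase CDC45 and the GINS complex turn the loaded MCM ring into an active helicase, DNA polymerases alpha, delta and epsilon copy the strands with the PCNA clamp, and ribonucleotide reductase, thymidylate synthase and their partners supply the nucleotides. Many of these genes are classic targets of E2F transcription factors, which the retinoblastoma protein holds back until growth factor signals drive cells past the G1 checkpoint.

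Promoter sequences were looked at because these genes moved as a group. A window from 250 bases before to 50 bases after the annotated start was available from RefSeq (GRCh38.p14) for 46 of the 52 genes. It was searched on both strands for the E2F words TTTGGCGC, TTTCCCGC, TTTCGCGC and TTTGCCGC. At least 1 word was present in 20 of the 46 promoters (43.5%), against 5.66% of the 8943 promoters of tested genes and 3.33% of all 27305 promoters. The word TTTCCCGC was in 23.9% of the promoters of these genes, 2.77% of those of tested genes and 1.66% of all promoters. In the same order TTTGGCGC was in 13.0%, 1.21% and 0.659%, TTTCGCGC in 13.0%, 1.03% and 0.546%, and TTTGCCGC in 0.0%, 0.861% and 0.564%. The CCAAT word, which binds NF-Y, was in 58.7%, 37.1% and 35.7%. The word TTTGAA, known as the CHR element of cell cycle promoters, was also searched on both strands and was in 4.35% (2 of 46), 9.61% and 15.4%. MCM2, MCM3 and MCM7 each held 2 E2F words and MCM6 held 4. In MCM2 and MCM6 each word on the gene's strand overlaps a word on the other strand, so the 2 words of such a pair are not separate places. The 4 promoters below were picked from those that hold an E2F word. Their genes were among those with the deepest falls under quizartinib and were higher in hBMSC-CM than in RPMI under the drug. Each promoter is written 5′ to 3′ on the strand of the gene, with the E2F words in capitals.
CDC6 (chr17:40287629-40287928, plus strand): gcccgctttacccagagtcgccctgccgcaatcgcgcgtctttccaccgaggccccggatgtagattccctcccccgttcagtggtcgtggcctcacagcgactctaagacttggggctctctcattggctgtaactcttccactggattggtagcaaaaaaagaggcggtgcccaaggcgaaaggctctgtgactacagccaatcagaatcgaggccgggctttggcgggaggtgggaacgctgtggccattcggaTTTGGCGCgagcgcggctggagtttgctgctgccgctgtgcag
MCM6 (chr2:135876394-135876693, minus strand): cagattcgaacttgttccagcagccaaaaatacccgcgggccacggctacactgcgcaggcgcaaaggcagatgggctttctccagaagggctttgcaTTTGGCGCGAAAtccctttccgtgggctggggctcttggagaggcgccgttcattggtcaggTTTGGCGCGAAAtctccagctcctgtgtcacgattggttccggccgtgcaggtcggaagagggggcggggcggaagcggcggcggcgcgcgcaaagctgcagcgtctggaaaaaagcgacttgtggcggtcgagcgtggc
MCM2 (chr3:127598161-127598460, plus strand): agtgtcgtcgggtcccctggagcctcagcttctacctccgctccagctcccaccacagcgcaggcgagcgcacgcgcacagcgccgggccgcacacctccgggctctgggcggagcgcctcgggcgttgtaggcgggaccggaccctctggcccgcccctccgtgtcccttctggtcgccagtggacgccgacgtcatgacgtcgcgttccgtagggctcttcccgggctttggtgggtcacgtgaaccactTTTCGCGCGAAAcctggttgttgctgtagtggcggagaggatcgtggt
GINS2 (chr16:85688905-85689204, minus strand): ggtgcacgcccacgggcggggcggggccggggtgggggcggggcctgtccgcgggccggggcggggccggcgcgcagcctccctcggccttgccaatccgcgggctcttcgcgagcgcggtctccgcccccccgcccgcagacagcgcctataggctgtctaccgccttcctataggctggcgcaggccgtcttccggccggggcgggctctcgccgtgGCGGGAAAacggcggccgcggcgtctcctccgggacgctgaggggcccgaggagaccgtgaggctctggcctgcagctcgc
In CDC6 the word begins 7 bases after the start site, in MCM2 the overlapping pair begins 2 bases after it, and GINS2 holds its word on the other strand, beginning 31 bases before the start. No word was in the windows of FEN1, CHAF1A, CDC45 or MCM10, which says only that these letters are not there. MCM10, CDC45 and FEN1 fell by more than MCM2 under quizartinib in RPMI, and were also higher in hBMSC-CM under the drug. A match is a description of the sequence, not evidence of a bound factor.

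Without drug in RPMI, the summed level of the 51 tested genes was 6489 ± 196 CPM (SD, n = 3). Per kilobase of transcript, input levels were highest for PCNA, the sliding clamp, at 241 CPM per kb, then for TYMS, thymidylate synthase, at 231 CPM per kb and for MCM7 at 165 CPM per kb. They were lowest among the tested genes for POLA2, the B subunit of DNA polymerase alpha, at 4.10 CPM per kb. Quizartinib brought the sum in RPMI to 1884 ± 153 CPM and combo brought it to 1746 ± 155 CPM. In hBMSC-CM the sum was 5723 ± 281 CPM with vehicle, 4862 ± 90.1 with everolimus, 2630 ± 243 with quizartinib and 2125 ± 215 with combo. The drug-treated sums of each medium did not overlap those of its vehicle. Relative to vehicle in the same medium, the median gene kept 30.5% of its level under quizartinib in RPMI (range 7.92% to 74.9%) and 46.0% in hBMSC-CM (27.0% to 79.5%). RPMI vehicle had the highest mean of the 7 conditions for 43 of the 51 genes, and RPMI combo had the lowest for 35. These counts were not made over all tested genes. Whether fewer cells were in S phase or each cell held less of these transcripts cannot be told apart in bulk RNA. CPM gives a share of the library, not an amount per cell. The paper reports from flow cytometry that cells surviving FLT3 inhibition were arrested in G1 in a similar way in both media. It also lists CDC6 protein among those lowered by the inhibition in both media. The part of this arrest in the transcript levels given here was not tested.

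**Figure D1:**
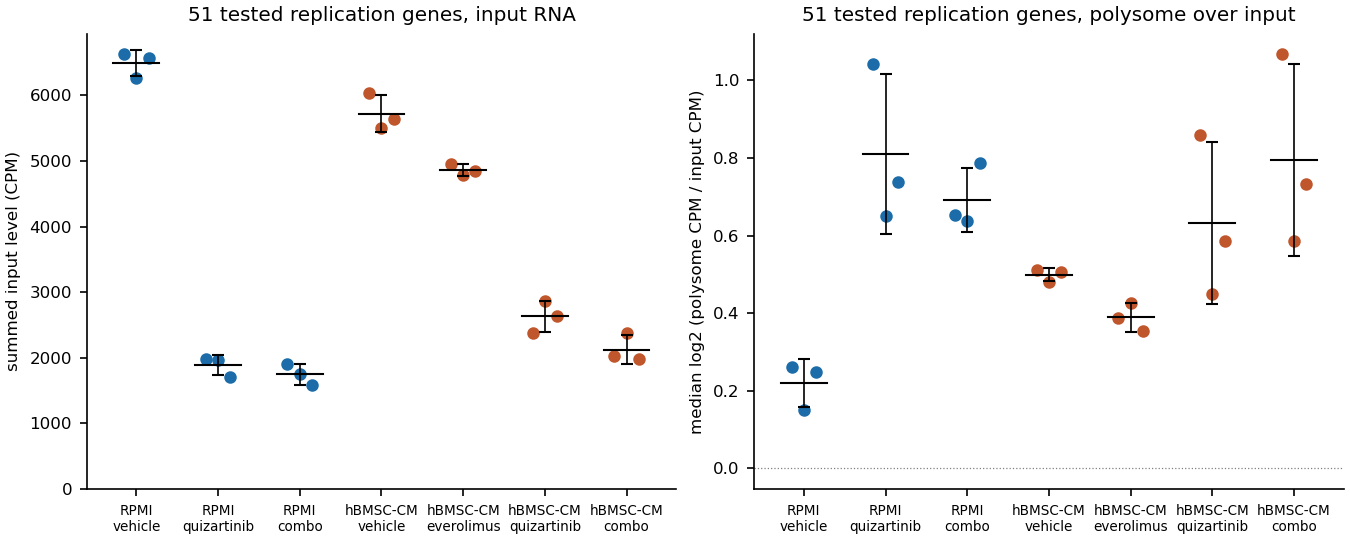
Each point is a culture. The left panel plots the summed input level of the 51 tested replication genes in CPM, and the right panel plots the median over these genes of log2 polysome over input; bars are the mean and SD of 3 cultures, blue is RPMI and orange is hBMSC-CM. Vehicle cultures in RPMI sum to 6265 to 6627 CPM and quizartinib cultures in RPMI to 1707 to 1982 CPM, while the median ratio is 0.15 to 0.26 in the former and 0.65 to 1.04 in the latter.

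Quizartinib in RPMI lowered 46 of the 51 genes and raised 0 (edgeR quasi-likelihood test, Benjamini-Hochberg adjusted p below 0.05), where 18% of all tested genes were called lower. The median log2 fold change was -1.71, against 0.08 over all tested genes, and single genes ran from -3.66 to -0.42. The 3 quizartinib cultures lay below the 3 vehicle cultures for 50 of the 51, against 27.2% of tested genes, with PRIM1 as the one overlap. Quizartinib in hBMSC-CM lowered 36 of the 51 and raised 0, where 6.84% of all tested genes were called lower. The median there was -1.12 and the range -1.89 to -0.33, and all 3 cultures lay below vehicle for 47 genes, against 17.2% of tested genes. Same-numbered cultures varied together, and with a term for the culture number (a block) fitted within each fraction, 50 genes were lower in RPMI and 47 in hBMSC-CM, where 24.4% and 15.6% of all tested genes were. The 2 quizartinib comparisons share no culture. Across the 51 genes their changes ran in parallel (Pearson r = 0.855, Spearman rho = 0.878, a description across genes, which are not independent), and 50 of the 51 fell by less in hBMSC-CM.

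**Figure D2:**
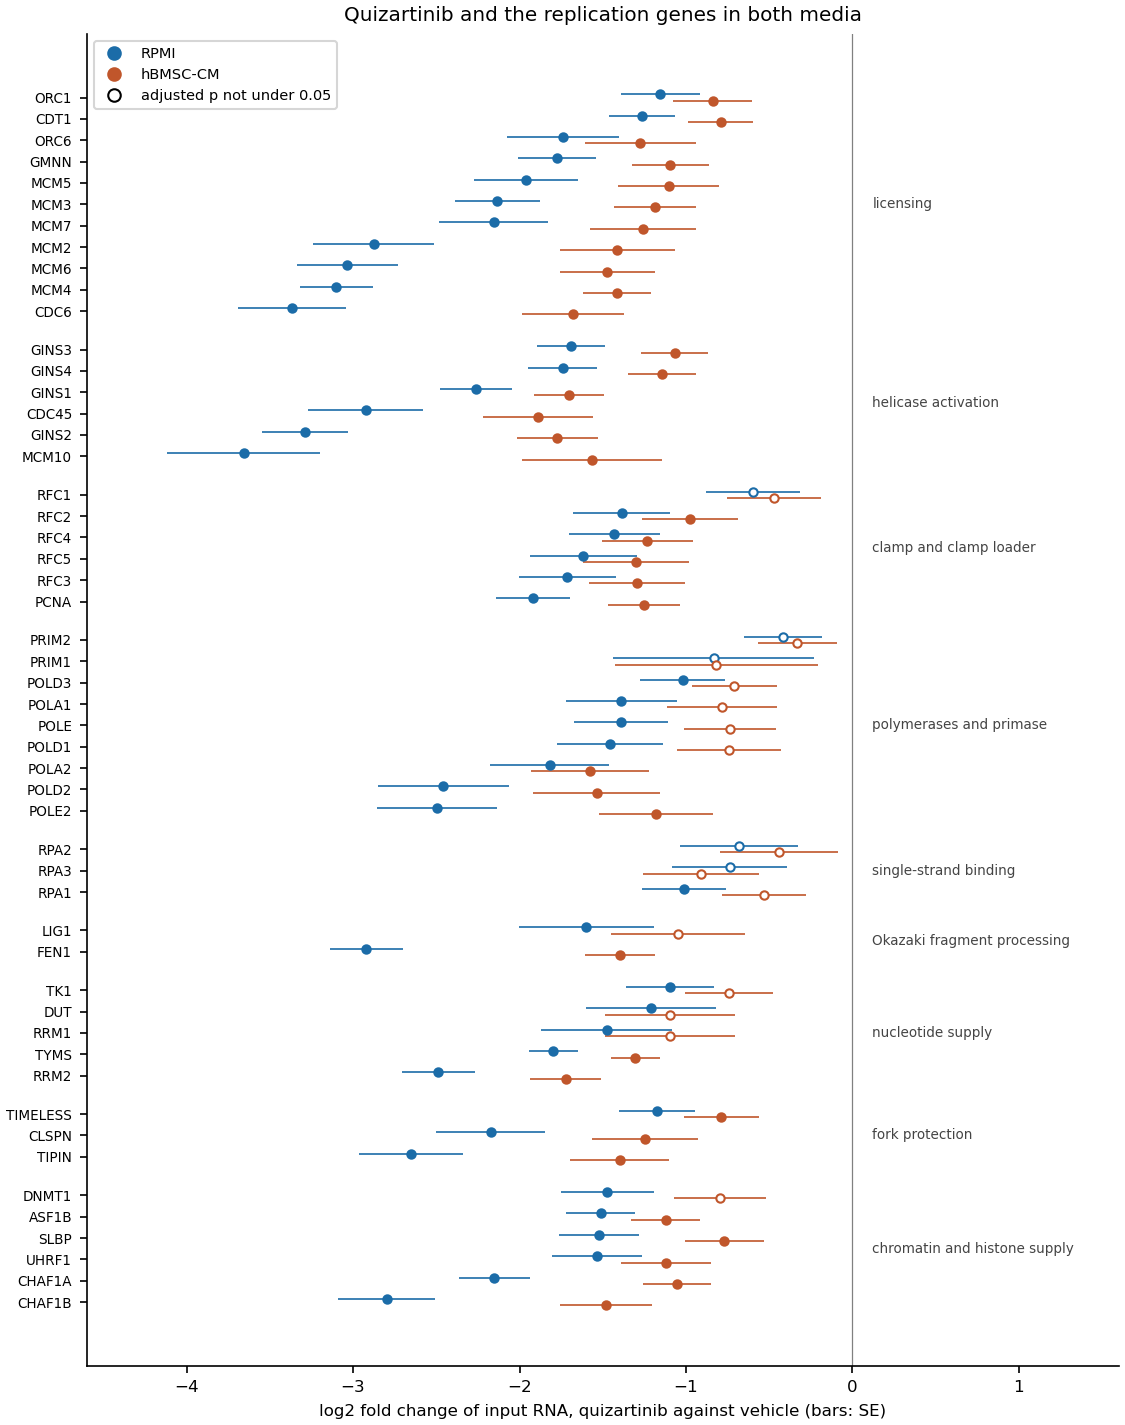
Log2 fold change of input RNA (quizartinib over vehicle, with SE from edgeR) for each replication gene, grouped by role, in RPMI (blue) and hBMSC-CM (orange); filled points have an adjusted p below 0.05. All points lie below 0, and 46 are filled in RPMI and 36 in hBMSC-CM.

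All 11 licensing genes were lower under quizartinib in both media, with a median log2 fold change of -2.13 in RPMI and -1.26 in hBMSC-CM. CDC6, the ATPase that recruits the MCM ring to ORC, measured 70.0, 75.7 and 65.0 CPM in RPMI vehicle and 5.21, 7.89 and 7.34 CPM with quizartinib. In hBMSC-CM it measured 58.3, 55.5 and 65.1 CPM with vehicle and 15, 22.6 and 18.3 CPM with quizartinib. The groups were far apart in both media, and the quizartinib cultures of hBMSC-CM all lay above those of RPMI. CDC6 fell by 3.37 ± 0.33 (SE) on the log2 scale in RPMI (edgeR adjusted p = 5.28e-10) and, in hBMSC-CM, by 1.68 ± 0.30 (adjusted p = 0.000395), to 9.70% and 31.2% of vehicle.

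MCM2, a subunit of the replicative helicase, went from 120, 106 and 109 CPM in RPMI vehicle to 15.7, 15 and 14.9 CPM with quizartinib. In hBMSC-CM it went from 103, 81.5 and 85.6 CPM to 28, 40.1 and 33.5 CPM. The drug and vehicle cultures did not overlap in either medium, with log2 fold changes of -2.88 ± 0.37 (edgeR adjusted p = 1.11e-07) and -1.41 ± 0.35 (adjusted p = 0.00604). MCM5, another subunit of the ring, fell by 1.96 ± 0.31 in RPMI (edgeR adjusted p = 5.25e-06) and, in hBMSC-CM, by 1.10 ± 0.30 (adjusted p = 0.0138), from 313, 306 and 330 CPM to 89.4, 83.3 and 71.1 CPM in RPMI. The 6 MCM2-7 transcripts kept between 11.7% (MCM4) and 25.7% (MCM5) of vehicle in RPMI, and between 36.0% (MCM6) and 46.5% (MCM5) in hBMSC-CM.

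The smallest falls in this group were those of ORC1 and CDT1. ORC1, the subunit of the origin recognition complex that varies over the cell cycle, measured 45.1, 35.1 and 42.4 CPM in RPMI vehicle and 20.8, 17.3 and 16.9 CPM with quizartinib, a log2 fold change of -1.15 ± 0.24 (edgeR adjusted p = 0.00024). CDT1, which loads the MCM ring together with CDC6, measured 150, 162 and 207 CPM and then 78.8, 64.0 and 73.2 CPM, a change of -1.26 ± 0.20 (adjusted p = 4.39e-06). They kept 45.0% and 41.7% of vehicle, and the cultures did not overlap. GMNN encodes geminin, the inhibitor of CDT1, and measured 74.2, 59.2 and 44.3 CPM in RPMI vehicle against 18.3, 18.8 and 14.9 CPM with quizartinib, a fall of 1.78 ± 0.24 (edgeR adjusted p = 2.38e-07). ORC6, another subunit of the origin recognition complex, kept 30.0% of vehicle in RPMI and 41.4% in hBMSC-CM. In hBMSC-CM ORC1, CDT1 and GMNN fell by 0.84 ± 0.24, 0.79 ± 0.20 and 1.10 ± 0.23 (edgeR adjusted p = 0.0171, 0.00654 and 0.00168 in that order).

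The 6 genes of helicase activation had the lowest median change of the 9 roles, -2.59 in RPMI and -1.63 in hBMSC-CM, and all 6 were called lower in both. MCM10, which helps to start the helicase and binds polymerase alpha, measured 47.6, 38.0 and 34.3 CPM in RPMI vehicle and 3.18, 4.07 and 2.24 CPM with quizartinib. That is 7.92% of vehicle, the lowest share of the 51 genes in this comparison, and a log2 fold change of -3.66 ± 0.46 (edgeR adjusted p = 9.07e-08). In hBMSC-CM it measured 40.1, 27.8 and 25.5 CPM with vehicle and 8.16, 12.8 and 10.7 CPM with quizartinib, a change of -1.56 ± 0.42 (edgeR adjusted p = 0.0123).

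CDC45, the helicase cofactor, went from 62.7, 55.1 and 62.3 CPM to 8.86, 6.35 and 8.51 CPM in RPMI and from 57.5, 57.9 and 67.0 CPM to 15.8, 15.2 and 18.3 CPM in hBMSC-CM. No culture overlapped in either medium. The changes were -2.93 ± 0.34 (edgeR adjusted p = 2.77e-08) and -1.89 ± 0.33 (adjusted p = 0.000283), and the second was the largest fall of the 51 genes in hBMSC-CM. GINS2, a subunit of the GINS complex, went from 56.5, 40.6 and 49.5 CPM to 6.23, 4.81 and 3.98 CPM in RPMI and from 44.7, 34.8 and 48.8 CPM to 9.63, 13.4 and 14.5 CPM in hBMSC-CM. Its changes were -3.29 ± 0.26 (edgeR adjusted p = 5.27e-12) and -1.77 ± 0.24 (adjusted p = 1.05e-05), again with no overlap. The other GINS subunits kept 20.9% (GINS1), 30.9% (GINS3) and 29.9% (GINS4) of vehicle in RPMI, and all were called lower.

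In the clamp and clamp loader group 5 of 6 genes were lower in each medium, with medians of -1.52 in RPMI and -1.24 in hBMSC-CM. PCNA, the clamp that tethers polymerases to DNA, measured 330, 329 and 264 CPM in RPMI vehicle and 86.1, 90.8 and 67.2 CPM with quizartinib. In hBMSC-CM it measured 292, 281 and 243 CPM and 114, 135 and 93.9 CPM. Its cultures separated fully, with changes of -1.92 ± 0.22 (edgeR adjusted p = 1.98e-08) and -1.25 ± 0.22 (adjusted p = 0.00025). RFC3, a small subunit of the clamp loader, fell by 1.71 ± 0.29 (edgeR adjusted p = 1.79e-05) and by 1.29 ± 0.29 (adjusted p = 0.00284).

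The small subunits RFC2, RFC4 and RFC5 kept 38.3%, 37.1% and 32.6% of vehicle in RPMI and 50.8%, 42.6% and 40.6% in hBMSC-CM, all called lower. RFC1, the large subunit of the loader, was the one gene of this group without a call in either medium. It measured 64.2, 52.3 and 59.0 CPM in RPMI vehicle and 47.6, 39.9 and 28.6 CPM with quizartinib, a log2 fold change of -0.59 ± 0.28 (edgeR adjusted p = 0.101). The quizartinib cultures lay below the vehicle cultures, and with the culture number as a block within each fraction the adjusted p was 0.0143. In hBMSC-CM its change was -0.47 ± 0.28 (edgeR adjusted p = 0.291).

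Among the polymerases and primase 7 of 9 genes were lower in RPMI and 3 of 9 in hBMSC-CM, with medians of -1.39 and -0.79. POLE2, the second subunit of polymerase epsilon, measured 13.4, 12.0 and 14.1 CPM in RPMI vehicle and 2.00, 1.54 and 3.46 CPM with quizartinib, a change of -2.50 ± 0.36 (edgeR adjusted p = 1.07e-06). POLA1, the catalytic subunit of polymerase alpha, measured 38.4, 41.1 and 44.8 CPM and 15.8, 16.0 and 15.7 CPM, a change of -1.39 ± 0.33 (adjusted p = 0.00128). Both pairs of groups stood apart. In hBMSC-CM POLE2 changed by -1.18 ± 0.34 (edgeR adjusted p = 0.0201), and POLA1 by -0.79 ± 0.33 (adjusted p = 0.114, and 0.0433 with the culture number as a block). POLA2 and POLD2 were the other genes of this role called lower in both media, with falls of 1.82 and 2.46 in RPMI and of 1.58 and 1.54 in hBMSC-CM, POLA2 with the shared exon bases named above. The catalytic subunits POLD1 and POLE and the accessory subunit POLD3 were lower in RPMI, at 36.4%, 38.2% and 49.3% of vehicle. In hBMSC-CM they stood at 59.9%, 60.1% and 61.1% and missed the threshold (edgeR adjusted p = 0.115, 0.075 and 0.0607), which they passed with the culture number as a block (adjusted p = 0.0345, 0.0306 and 0.0377).

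The primase genes were called in neither medium without a block. PRIM1, the small catalytic subunit, measured 16.6, 6.06 and 4.67 CPM in RPMI vehicle and 7.68, 5.06 and 2.62 CPM with quizartinib. Its vehicle cultures differed among themselves by more than the groups did, and the change of -0.83 ± 0.61 was not called (edgeR adjusted p = 0.304, and 0.191 and 0.133 with the block and with the block within each fraction). PRIM2, the large subunit, kept 74.9% of vehicle in RPMI and 79.5% in hBMSC-CM, the highest shares of the 51 genes in both comparisons, with changes of -0.42 ± 0.23 and -0.33 ± 0.23 (edgeR adjusted p = 0.172 and 0.393). With the block within each fraction PRIM2 was called lower in RPMI (adjusted p = 0.0282) and not in hBMSC-CM (0.145).

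Of the 3 subunits of replication protein A, which coats single-stranded DNA, 1 was lower in RPMI and 0 were in hBMSC-CM, with medians of -0.74 and -0.53. RPA1, the large subunit, measured 155, 147 and 153 CPM in RPMI vehicle and 88.5, 86.5 and 50.4 CPM with quizartinib, a change of -1.01 ± 0.25 (edgeR adjusted p = 0.00173). In hBMSC-CM it measured 151, 128 and 90.8 CPM and 89.0, 93.8 and 73.2 CPM, so the groups overlapped there, and the change was -0.53 ± 0.25 (edgeR adjusted p = 0.165, and 0.0283 with the culture number as a block). RPA2 and RPA3, the smaller subunits, were called in neither medium without a block. With the culture number as a block both were lower in RPMI (edgeR adjusted p = 0.0124 and 0.0399), and in hBMSC-CM RPA3 was (0.0248) and RPA2 was not (0.153). RPA3 was the one gene of the 51 with a lower estimate in hBMSC-CM than in RPMI, -0.91 ± 0.35 against -0.74 ± 0.35 (edgeR adjusted p = 0.0799 and 0.0974).

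In Okazaki fragment processing both tested genes were lower in RPMI and 1 of 2 in hBMSC-CM. FEN1, the flap endonuclease that trims Okazaki fragments, measured 180, 218 and 218 CPM in RPMI vehicle and 21.4, 34.6 and 25.4 CPM with quizartinib. In hBMSC-CM it measured 175, 203 and 233 CPM with vehicle and 52.8, 99.7 and 79.7 CPM with quizartinib. The vehicle cultures of the 2 media overlapped, while each quizartinib culture of hBMSC-CM lay above each of RPMI. FEN1 fell by 2.92 ± 0.22 in RPMI (edgeR adjusted p = 2.57e-12) and, in hBMSC-CM, by 1.40 ± 0.21 (adjusted p = 3.77e-05). LIG1, the ligase that seals the fragments, changed by -1.6 ± 0.41 (edgeR adjusted p = 0.00215) and by -1.05 ± 0.40 (adjusted p = 0.0798, and 0.00571 with the culture number as a block).

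All 5 nucleotide supply genes were lower in RPMI and 2 of 5 in hBMSC-CM, with medians of -1.48 and -1.10. RRM2, the regulated small subunit of ribonucleotide reductase, measured 243, 195 and 188 CPM in RPMI vehicle and 39.7, 32.4 and 39.4 CPM with quizartinib, and in hBMSC-CM 245, 208 and 196 CPM and 63.0, 72.8 and 60.6 CPM. It fell by 2.49 ± 0.22 (edgeR adjusted p = 8.37e-11) and by 1.72 ± 0.21 (adjusted p = 2.93e-06). RRM1, the large subunit of the same enzyme, fell by 1.48 ± 0.39 in RPMI (edgeR adjusted p = 0.0033) and changed by -1.10 ± 0.39 in hBMSC-CM (adjusted p = 0.0586). The small subunit kept 17.8% of vehicle in RPMI and the large subunit kept 35.9%.

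TYMS, which makes thymidylate, measured 403, 333 and 382 CPM in RPMI vehicle and 124, 101 and 97.6 CPM with quizartinib, with no overlap. It fell by 1.80 ± 0.15 in RPMI (edgeR adjusted p = 1.67e-11) and, in hBMSC-CM, by 1.30 ± 0.15 (adjusted p = 1.2e-06), although its exons overlap those of ENOSF1 and TYMSOS, so its counts are uncertain. TK1, thymidine kinase, measured 122, 110 and 127 CPM and 62.5, 56.5 and 49.4 CPM in RPMI. That fall of 1.09 ± 0.26 (edgeR adjusted p = 0.00129) was the smallest of the group. DUT, the dUTPase that keeps uracil out of DNA, fell by 1.21 ± 0.39 in RPMI (edgeR adjusted p = 0.0143). In hBMSC-CM TK1 changed by -0.74 ± 0.26 and DUT by -1.10 ± 0.39 (edgeR adjusted p = 0.0573 and 0.0582). With the culture number as a block, RRM1, TK1 and DUT all passed in hBMSC-CM (edgeR adjusted p = 0.0151, 0.00734 and 0.00857).

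The 3 fork protection genes were lower in both media, with medians of -2.17 and -1.24. CLSPN encodes claspin, the adaptor between the fork and the checkpoint kinase CHEK1. It measured 60.2, 61.1 and 62.1 CPM in RPMI vehicle and 13.7, 12.5 and 14.5 CPM with quizartinib, and in hBMSC-CM 57.8, 54.9 and 50.2 CPM and 18.1, 27.9 and 22.7 CPM. It fell by 2.17 ± 0.33 (edgeR adjusted p = 2.32e-06) and by 1.24 ± 0.32 (adjusted p = 0.00833). TIPIN fell by more than its partner TIMELESS, to 15.9% against 44.4% of vehicle in RPMI; the difference between the 2 genes was not tested, and TIPIN shares exon bases with a pseudogene.

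All 6 genes of chromatin and histone supply were lower in RPMI and 5 of 6 in hBMSC-CM, with medians of -1.53 and -1.09. UHRF1, which brings the maintenance methyltransferase DNMT1 to newly copied DNA, measured 294, 364 and 388 CPM in RPMI vehicle and 89.5, 144 and 128 CPM with quizartinib. It fell by 1.53 ± 0.27 (edgeR adjusted p = 2.9e-05) and, in hBMSC-CM, by 1.12 ± 0.27 (adjusted p = 0.00516). DNMT1 itself fell by 1.47 ± 0.28 in RPMI (edgeR adjusted p = 7.98e-05) and changed by -0.79 ± 0.28 in hBMSC-CM (adjusted p = 0.053, and 0.0086 with the culture number as a block). SLBP, which binds the stem-loop of histone mRNAs, measured 75.9, 55.7 and 51.9 CPM and then 22.5, 24.3 and 17.2 CPM in RPMI. It fell by 1.52 ± 0.24 in RPMI (edgeR adjusted p = 5.53e-06) and, in hBMSC-CM, by 0.77 ± 0.24 (adjusted p = 0.0292). CHAF1A and CHAF1B, subunits of the histone chaperone CAF-1, kept 22.5% and 14.4% of vehicle in RPMI and 48.2% and 35.9% in hBMSC-CM. ASF1B, the chaperone that hands histones to CAF-1, fell by 1.51 ± 0.21 and by 1.12 ± 0.21 in the 2 media (edgeR adjusted p = 5.22e-07 and 0.000462).

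The 20 promoters with an E2F word belonged to genes that were all called lower in RPMI, 16 of them also in hBMSC-CM, with median log2 fold changes of -1.87 and -1.25. Of the 26 genes without a word, 25 were tested and 22 were lower in RPMI and 17 in hBMSC-CM, with medians of -1.51 and -1.10. MCM10 and FEN1, without a word, fell by 3.66 and 2.92 in RPMI. CDC45, also without a word, had the largest fall of these genes in hBMSC-CM. CDC6, MCM6, MCM2 and GINS2, whose promoters are printed above, fell by 3.37, 3.03, 2.88 and 3.29 in RPMI.

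Without drug the comparison of hBMSC-CM with RPMI gave 0 calls among the 51 genes (edgeR, with limma voom and DESeq2 also at 0), where 1.51% of all tested genes were called in either direction. An edgeR unadjusted p below 0.05 was found for 1 of the 51 and for 970 of the 12939 tested genes. The median change was -0.13, and 44 of the 51 were below 0. The 3 hBMSC-CM cultures lay below the 3 RPMI cultures for 9 genes, against 8.16% of tested genes. The lowest value was that of UHRF1, at 221, 260 and 225 CPM in hBMSC-CM against 294, 364 and 388 CPM in RPMI, a log2 fold change of -0.57 ± 0.27 (edgeR adjusted p = 0.6). It was the single gene called with the culture number as a block within each fraction (adjusted p = 0.0343), where 1.11% of all tested genes were called lower. At the other end lay POLE2 (0.14 ± 0.34) and RPA3, the small subunit of replication protein A (0.13 ± 0.34), whose groups overlapped.

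Under quizartinib 13 of the 51 genes were higher in hBMSC-CM than in RPMI and 0 were lower, where 6.11% of all tested genes were called higher. The median difference was 0.41, against -0.03 over all tested genes, and 46 genes were above 0. All 3 hBMSC-CM cultures lay above all 3 RPMI cultures for 32 of the 51, against 15.7% of tested genes. The 13 were MCM2, MCM4, MCM6, CDC6, MCM10, CDC45, GINS2, POLE2, FEN1, RRM2, TIPIN, CHAF1A and CHAF1B. With the culture number as a block within each fraction there were 25, where 11.4% of all tested genes were called higher. The 12 that joined were MCM3, MCM5, MCM7, GMNN, PCNA, POLD1, POLD2, POLE, TYMS, CLSPN, DNMT1 and SLBP (edgeR adjusted p = 0.00365 for MCM7 to 0.0441 for TYMS), of which PCNA and SLBP were also called with the plain block (0.0391 and 0.0386). The differences of the 13 ran from 0.82 ± 0.21 for RRM2 to 1.74 ± 0.43 for MCM10 (edgeR adjusted p = 0.0091 and 0.00683). UHRF1 was not among them: its quizartinib cultures measured 84.5, 126 and 114 CPM in hBMSC-CM and 89.5, 144 and 128 CPM in RPMI, so they overlapped (-0.15 ± 0.27, edgeR adjusted p = 0.851). PRIM1 and PRIM2 were also without a difference past the threshold (-0.28 ± 0.61 and -0.19 ± 0.23).

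The test of the difference itself, the quizartinib effect in hBMSC-CM minus that in RPMI, called 6 of the 51 genes higher and 0 lower, where 1.79% of all tested genes were called higher. Positive values mean a smaller fall in hBMSC-CM, and 50 of the 51 were positive, with a median of 0.60. MCM4, part of the helicase ring, measured 274, 248 and 267 CPM in RPMI vehicle, 27.6, 37.4 and 27.1 CPM in RPMI quizartinib, 243, 215 and 201 CPM in hBMSC-CM vehicle and 61.1, 102 and 83.7 CPM in hBMSC-CM quizartinib. Vehicle levels in hBMSC-CM were a little below those in RPMI and quizartinib levels were above them, and the difference in effect was 1.69 ± 0.29 (edgeR adjusted p = 0.000451). MCM6, of the same ring, measured 204, 143 and 174 CPM, 22.2, 22.6 and 18.7 CPM, 180, 122 and 118 CPM, and 51.8, 53.9 and 45.7 CPM in these 4 conditions, a difference of 1.56 ± 0.40 (adjusted p = 0.0272). FEN1 and GINS2, whose values are given above, differed by 1.52 ± 0.29 and 1.51 ± 0.34 (edgeR adjusted p = 0.00227 and 0.00857). CHAF1A measured 172, 159 and 207 CPM and 34.9, 41.5 and 44.6 CPM in RPMI, and 145, 138 and 179 CPM and 56.6, 76.5 and 89.9 CPM in hBMSC-CM, a difference of 1.10 ± 0.29 (edgeR adjusted p = 0.0343).

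CDC6 differed by 1.69 ± 0.42 (edgeR adjusted p = 0.0244), a call that was lost without replicate 2 of hBMSC-CM quizartinib, without replicate 1 or 2 of either vehicle and without replicate 1 of RPMI quizartinib. MCM10 had the largest estimate, 2.09 ± 0.59, but missed the threshold (edgeR adjusted p = 0.0562), which it passed with the culture number as a block (adjusted p = 0.0215). That fit called 11 genes and the block within each fraction 18, where 2.94% and 5.13% of all tested genes were called higher. MCM2, MCM10, RRM2, TIPIN and CHAF1B joined in both (edgeR adjusted p = 0.00777 for TIPIN to 0.0379 for RRM2 with the block), and MCM3, MCM5, MCM7, CDC45, PCNA, POLE2 and SLBP in the latter (adjusted p = 0.00643 for MCM3 to 0.0453 for POLE2). RPA3 was the one gene with a negative value (-0.17 ± 0.49). Without replicate 2 of hBMSC-CM vehicle or replicate 1 of RPMI vehicle the count of 6 went to 3.

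**Figure D3:**
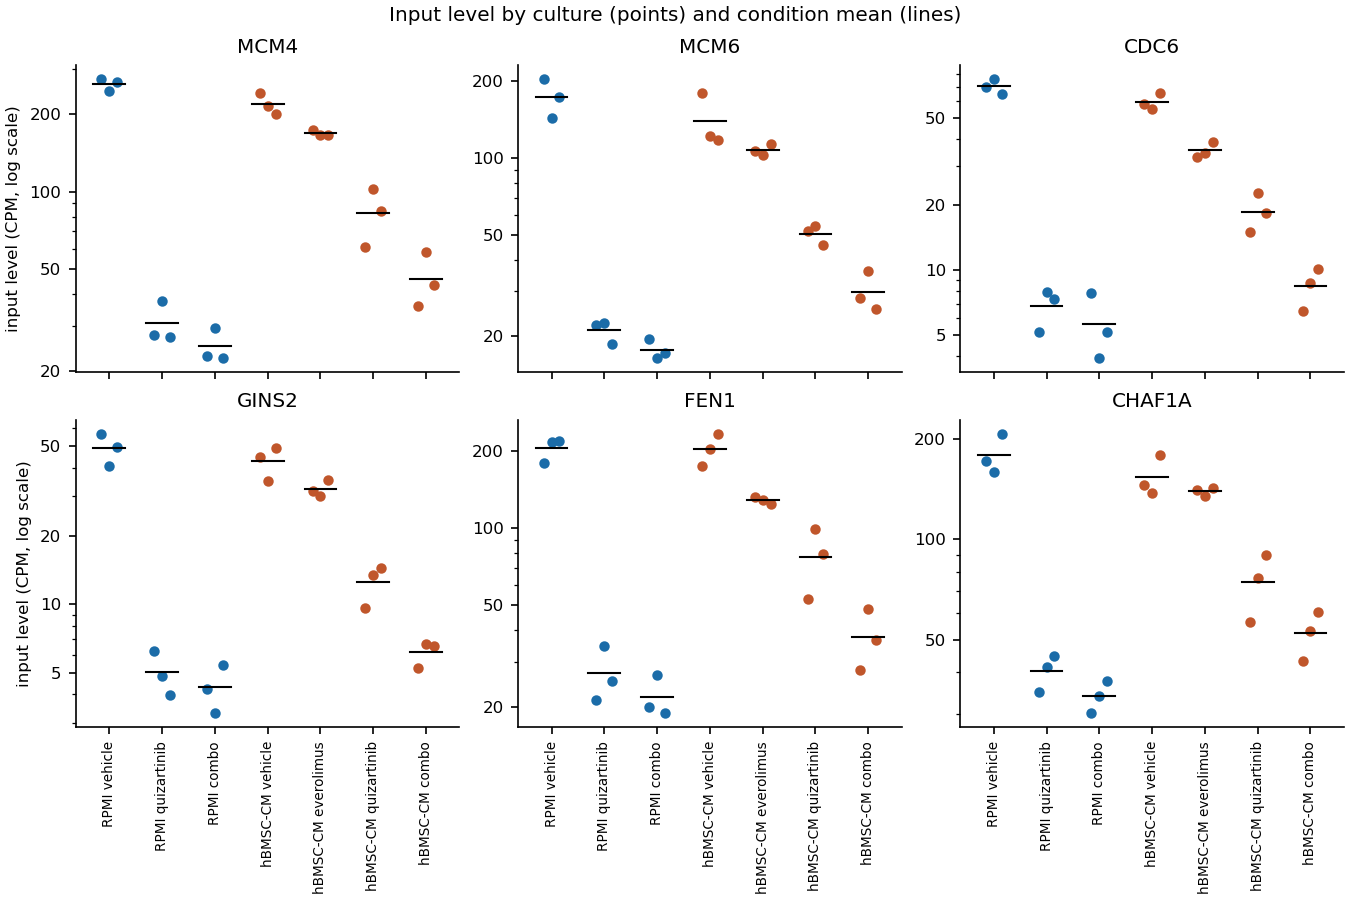
Input level in CPM (log axis) by culture for the 6 replication genes whose quizartinib effect differed between the media: MCM4, MCM6, CDC6, GINS2, FEN1 and CHAF1A. Lines mark the mean of 3 cultures; in each gene the hBMSC-CM quizartinib cultures lie above those of RPMI quizartinib, while the vehicle cultures of the media lie close together.

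Adding everolimus to quizartinib in RPMI left the 51 genes without a call (0 by edgeR, limma voom and DESeq2), where 0.00773% of all tested genes were called in either direction. An edgeR unadjusted p below 0.05 was found for 1 of the 51 and for 172 of the 12939 tested genes. The median change was -0.10, and 3 genes, CLSPN, MCM10 and POLD2, had all 3 combo cultures below quizartinib, against 4.52% of tested genes. POLA2 had the lowest estimate, from 2.72, 3.57 and 6.05 CPM with quizartinib to 2.86, 2.66 and 0.949 CPM with combo, an overlap and a change of -0.93 ± 0.36 (edgeR adjusted p = 1). MCM10 stood at 2.04, 1.89 and 2.06 CPM with combo, or 4.99% of vehicle, and changed by -0.67 ± 0.44 against quizartinib.

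In hBMSC-CM combo was below quizartinib in mean for 44 of the 51 genes, and 1 gene, FEN1, was called lower, where 0.24% of all tested genes were called lower. The median change was -0.29. All 3 combo cultures lay below all 3 quizartinib cultures for 17 genes, against 8.9% of tested genes, CDC6, CDC45, GINS2, MCM3, MCM4, MCM6, MCM10 and POLD2 among them. FEN1 measured 28, 48.4 and 36.7 CPM with combo against 52.8, 99.7 and 79.7 CPM with quizartinib, which did not overlap, a log2 fold change of -1.04 ± 0.21 (edgeR adjusted p = 0.0192). That call was lost without replicate 1 or 3 of combo or replicate 2 or 3 of quizartinib and when only the groups compared were fitted.

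CDC6 measured 6.46, 8.69 and 10.1 CPM with combo against 15, 22.6 and 18.3 CPM with quizartinib, a change of -1.15 ± 0.30 (edgeR adjusted p = 0.107). GINS2 measured 5.23, 6.70 and 6.53 CPM against 9.63, 13.4 and 14.5 CPM, a change of -1.02 ± 0.24 (adjusted p = 0.0613). Both had separate groups, and with the culture number as a block both were called (edgeR adjusted p = 0.0208 for each). The block gave 4 calls in all, with MCM4 (adjusted p = 0.0208) and FEN1 as the others, and the block within each fraction gave 9, where 1.1% and 2.69% of all tested genes were called lower. MCM10 and POLD2, the second subunit of polymerase delta, were among the 9 (edgeR adjusted p = 0.0282 and 0.00332), as were MCM3, MCM6 and CHAF1A (0.0338, 0.0225 and 0.0259). MCM10 changed by -1.15 ± 0.42 and POLD2 by -1.10 ± 0.38, the latter from 52.2, 66.7 and 91.4 CPM to 22.9, 32.2 and 42.7 CPM. At the other end were PRIM1 (0.73 ± 0.61), CDT1 (0.29 ± 0.20) and RFC1 (0.26 ± 0.28), none of them called.

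Everolimus alone in hBMSC-CM called 0 of the 51 genes (edgeR, with limma voom and DESeq2 also at 0), where 0.41% of all tested genes were called in either direction. An edgeR unadjusted p below 0.05 was found for 12 of the 51 and for 1123 of the 12939 tested genes. The median change was -0.32, and 45 of the 51 were below 0. All 3 everolimus cultures lay below vehicle for 25 genes, against 13.5% of tested genes, and above it for 3, against 14.2%. Means under everolimus lay between those of vehicle and quizartinib in hBMSC-CM for 45 of the 51. All 51 had a lower estimate under quizartinib against the same vehicle cultures, so any smaller fall under everolimus lies in between. This pattern was not counted over all tested genes. The lowest estimates were those of POLE2, CDC6 and GMNN, which kept 56.0%, 59.7% and 60.4% of vehicle. GMNN measured 33.8, 36.0 and 30.8 CPM with everolimus and 62.7, 53.0 and 50.7 CPM with vehicle, with no overlap and a change of -0.73 ± 0.23 (edgeR adjusted p = 0.177). CDC6 measured 33.2, 34.6 and 39 CPM against 58.3, 55.5 and 65.1 CPM, a change of -0.74 ± 0.30 (edgeR adjusted p = 0.395). The everolimus cultures stood apart from the rest, with same-numbered correlations of -0.09 to 0.03 with their vehicle and a smaller spread, and whether they were handled together with the other conditions is not stated, so the drug and any such difference cannot be told apart.

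CDT1 went the other way from its partner CDC6, at 199, 198 and 194 CPM with everolimus and 118, 127 and 188 CPM with vehicle, a change of 0.45 ± 0.19 (edgeR adjusted p = 0.474). Its cultures did not overlap, but vehicle replicate 3 lay close to the everolimus cultures. POLA1 (0.23 ± 0.33) and TK1 (0.14 ± 0.26) were the other genes whose everolimus cultures all lay above vehicle. The everolimus and quizartinib comparisons in hBMSC-CM share their vehicle cultures, and under quizartinib these 3 genes stood at 57.8%, 58.0% and 59.8% of vehicle.

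Log2 polysome over input, the log2 ratio of CPM in heavy polysomes to CPM in input of the same culture, describes how a transcript is shared between the fractions, relative to all others. In RPMI vehicle 20 of the 51 genes were higher in heavy polysomes than in input and 12 were lower, where 31.5% and 33.9% of all tested genes were called higher and lower. Scaled by library size only, 10 were higher and 16 lower, and the median over all tested genes moved from -0.06 to -0.61. Counting cultures instead, 22 genes had all 3 polysome libraries above input, against 33% of tested genes, and 13 had all 3 below, against 37.5%. Calls went both ways among these genes, as they did among all tested genes. With the culture number as a block RFC3 (-0.58 ± 0.25) and RFC5 (0.61 ± 0.23) joined the calls (edgeR adjusted p = 0.04 and 0.0178). With the block within each fraction DUT joined the lower genes, RFC5, POLE, UHRF1, CHAF1A and CHAF1B joined the higher ones, and POLE2 was no longer called (adjusted p = 0.0631).

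The ratios differed widely within single complexes. TK1 had the highest mean ratio, with 2.17, 2.28 and 1.37 in the 3 cultures, a polysome minus input difference of 1.98 ± 0.27 (edgeR adjusted p = 2.37e-07). ASF1B, a histone chaperone (1.77 ± 0.21), and CDT1 (1.5 ± 0.20) followed. At the low end MCM10 had ratios of -1.71, -2.43 and -1.5, a difference of -1.84 ± 0.42 (edgeR adjusted p = 0.000353).

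RRM1 had ratios of -1.13, -2.16 and -1.74 (-1.62 ± 0.40, edgeR adjusted p = 0.000623), while its partner RRM2 had 0.11, -0.10 and 0.22 (0.08 ± 0.21, adjusted p = 0.74). Within the MCM ring MCM7, MCM5 and MCM2 were higher in polysomes (1.43 ± 0.32, 1.31 ± 0.30 and 1.30 ± 0.34), MCM6 was lower (-0.92 ± 0.28), and MCM3 and MCM4 were not called (-0.19 ± 0.24 and 0.02 ± 0.20). All 3 ratios of MCM6 were negative (-0.90, -0.85 and -0.99), and those of MCM2 were positive but uneven (1.93, 1.10 and 0.36). POLA1 (-1.43 ± 0.34), RFC1 (-1.37 ± 0.29) and CLSPN (-1.24 ± 0.32) were among the lower genes, and GINS2 (1.07 ± 0.24), FEN1 (0.95 ± 0.21) and TYMS (0.88 ± 0.14) among the higher ones.

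Across the 51 genes the ratio in RPMI vehicle rose with the GC content of the transcript (Spearman rho = 0.76, a description across genes), and it did so over the 10799 tested genes with an annotated coding transcript (rho = 0.77). MCM10, with the lowest ratio, has 43.7% GC and TK1, with the highest, has 60.3% GC. The part of GC content in the ratios was not tested.

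**Figure D4:**
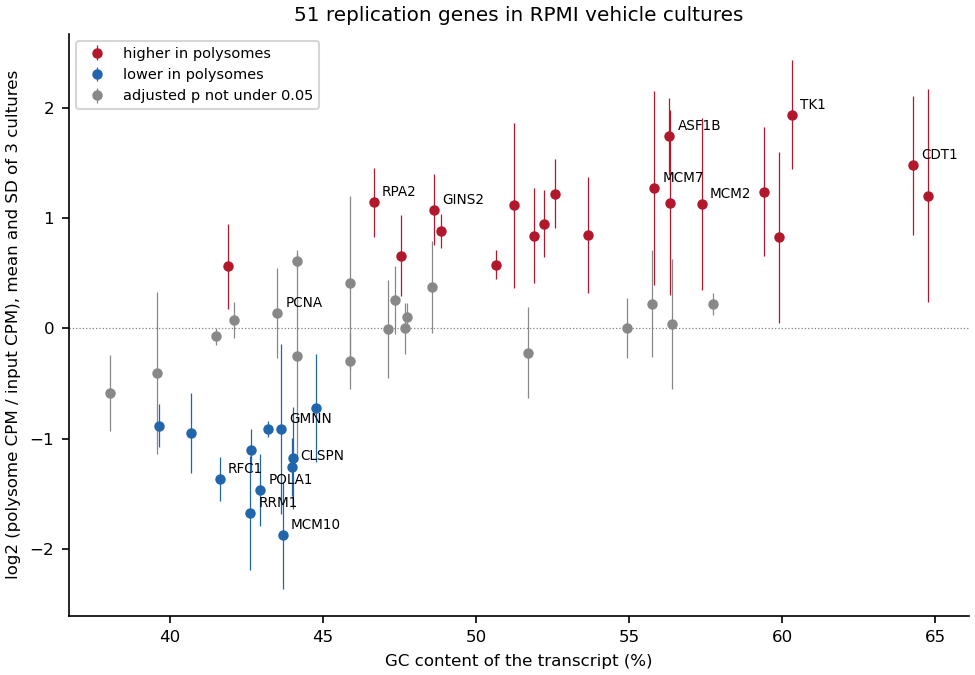
Mean log2 polysome over input of each replication gene in RPMI vehicle (SD of 3 cultures) against the GC content of its transcript in percent; red genes were higher in polysomes, blue lower, and grey not called. MCM10 and RRM1 lie lowest, and TK1 and ASF1B highest. RFC3, with the lowest GC content of these genes (38.0%), lies at -0.59, and GINS1 (41.9%) lies at 0.56.

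Quizartinib in RPMI moved the ratio of 0 of the 51 genes past the threshold (edgeR, with limma voom and DESeq2 also at 0), where 1.55% of all tested genes were called in either direction. An edgeR unadjusted p below 0.05 was found for 17 of the 51 and for 2014 of the 12939 tested genes. The median shift was 0.43 against 0.15 over all tested genes (0.38 over all genes with library size only). Shifts were above 0 for 47 of the 51 and for 7869 of the 12939 tested genes. Each library is scaled to a common total, so a higher ratio is a larger share of the polysome RNA, not a larger amount. The paper reports that quizartinib lowered RNA yield, and more so in heavy polysomes than in input. All 3 ratios lay above those of vehicle for 11 genes, against 13.3% of tested genes. The per-culture median over these genes was 0.15 to 0.26 with vehicle and 0.65 to 1.04 with quizartinib. MCM10 had the largest shift, with ratios of -0.20, -1.29 and 0.85 under quizartinib, a change of 1.68 ± 0.60 (edgeR adjusted p = 0.155). MCM6 went from -0.90, -0.85 and -0.99 to 0.25, -0.38 and 1.00, with no overlap and a change of 1.27 ± 0.40 (adjusted p = 0.102). POLA1 changed by 1.27 ± 0.47 (edgeR adjusted p = 0.171).

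With the culture number as a block 4 genes were called higher, MCM6 and RPA1 among them (edgeR adjusted p = 0.0379 and 0.0107), and with the block within each fraction 16 were, where 1.51% and 7.76% of all tested genes were called higher. MCM4 and CHAF1A were the others of the 4 (0.048 and 0.0324). The 16 added MCM3, CDC6, MCM10, PCNA, RFC1, POLA1, POLD3, POLE, RRM1, RRM2, UHRF1 and DNMT1 (edgeR adjusted p = 0.00468 for UHRF1 to 0.0484 for CDC6). RPA1 went from ratios of 0.36, 0.13 and -0.50 to 1.13, 0.65 and 1.22. All 3 quizartinib cultures lay above all 3 vehicle cultures. Across the 51 genes the shift rose with coding length (Spearman rho = 0.62, a description, and 0.50 over 10799 genes). Under quizartinib in hBMSC-CM the same relation had the opposite sign (rho = -0.42, and -0.11 over those genes), and the part of length was not tested. RPA3 (-0.70 ± 0.49), POLD2 (-0.12 ± 0.53) and RFC2 (-0.11 ± 0.40) had the lowest shifts.

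In hBMSC-CM the ratio shifts under quizartinib were smaller, with a median of 0.17 against 0.10 over all tested genes, 0 of the 51 called and 0% of all tested genes called. An edgeR unadjusted p below 0.05 was found for 0 of the 51 and for 288 of the 12939 tested genes. POLE2 (0.64 ± 0.48), RFC4 (0.59 ± 0.38) and GMNN (0.49 ± 0.32) had the highest estimates and MCM7 the lowest (-0.24 ± 0.44). The media difference in this shift had a median of -0.37, with 0 of the 51 and 0% of all tested genes called. At an edgeR unadjusted p below 0.05 lay 3 of the 51, against 624 of the 12939 tested genes. MCM10 (-1.22 ± 0.84), RPA1 (-1.09 ± 0.50) and MCM3 (-1.05 ± 0.49) had the lowest values and RPA3 the highest (0.93 ± 0.69). DESeq2 called 13 and limma voom 0 genes of the whole table, none of them among the 51.

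Between the media, 0 of the 51 genes differed in ratio without drug and 0 under quizartinib, and 0% of all tested genes did in either (edgeR, with 0 of the 51 at an unadjusted p below 0.05 and 0 called by limma voom or DESeq2 in both). Of the 12939 tested genes, 211 without drug and 450 under quizartinib had an edgeR unadjusted p below 0.05. The median was 0.19 without drug, where CHAF1A, MCM6, ORC1 and RPA1 had all 3 ratios above those of RPMI, against 3.03% of tested genes. ORC1 had 0.72 in each of the 3 hBMSC-CM cultures and 0.58, 0.71 and 0.44 in RPMI. Under quizartinib the median was -0.16, with RFC1 lowest (-0.61 ± 0.40) and RPA3 highest (0.64 ± 0.49). Combo against quizartinib gave medians of -0.03 in RPMI and 0.11 in hBMSC-CM, again with 0 of the 51 and 0% of all tested genes called. At an edgeR unadjusted p below 0.05 lay 0 of the 51, against 93 of the 12939 tested genes in RPMI and 273 in hBMSC-CM. The highest estimates there were those of POLA2 in RPMI (0.56 ± 0.50) and of MCM3 in hBMSC-CM (0.56 ± 0.35), and the lowest those of ASF1B in RPMI (-0.43 ± 0.29) and of PRIM1 in hBMSC-CM (-0.51 ± 0.86).

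Everolimus alone in hBMSC-CM moved the ratio of 0 of the 51 genes past the threshold, with 0% of all tested genes called and 0 of the 51 by limma voom or DESeq2. An edgeR unadjusted p below 0.05 was found for 6 of the 51 and for 573 of the 12939 tested genes. The median shift was -0.10, against 0.01 over all tested genes. The everolimus cultures stood apart in spread and pairing here too, as given above. All 3 ratios lay below vehicle for 11 genes, against 8.89% of tested genes, and above it for 4, against 9.19%. The 11 were MCM2, MCM3, MCM5, MCM7, CDC45, POLD1, RPA1, TIMELESS, DNMT1, CHAF1A and CHAF1B, and the 4 were GMNN, PCNA, RFC3 and RRM2.

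MCM2 had ratios of 2.08, 1.59 and 1.10 with vehicle and 0.39, 0.54 and 0.29 with everolimus, a change of -1.27 ± 0.48 (edgeR adjusted p = 1). MCM7 had 2.05, 1.66 and 1.02 and then 0.53, 0.73 and 0.58, a change of -1.04 ± 0.44, and CDC45 had 1.87, 1.6 and 0.53 and then 0.33, 0.46 and 0.38, a change of -1.01 ± 0.45 (edgeR adjusted p = 1 for both). In these genes the vehicle cultures were spread widely while the everolimus cultures lay together below them. POLD1, the catalytic subunit of polymerase delta, had 2.12, 1.35 and 1.40 and then 0.67, 0.84 and 0.61. RPA1 had 0.56, 0.48 and 0.66 and then -0.39, -0.20 and -0.34, a change of -0.87 ± 0.35 (edgeR adjusted p = 1). PCNA was among those with a higher ratio, at -0.05, 0.47 and 0.17 with vehicle and 0.65, 0.60 and 0.56 with everolimus (0.39 ± 0.30).

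Across the 51 genes the everolimus shift fell with coding length (Spearman rho = -0.59) and with GC content (rho = -0.58), and over the 10799 genes rho was -0.30 and -0.33. These are descriptions across genes that share libraries, and the part of length or GC content was not tested.

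**Figure D5:**
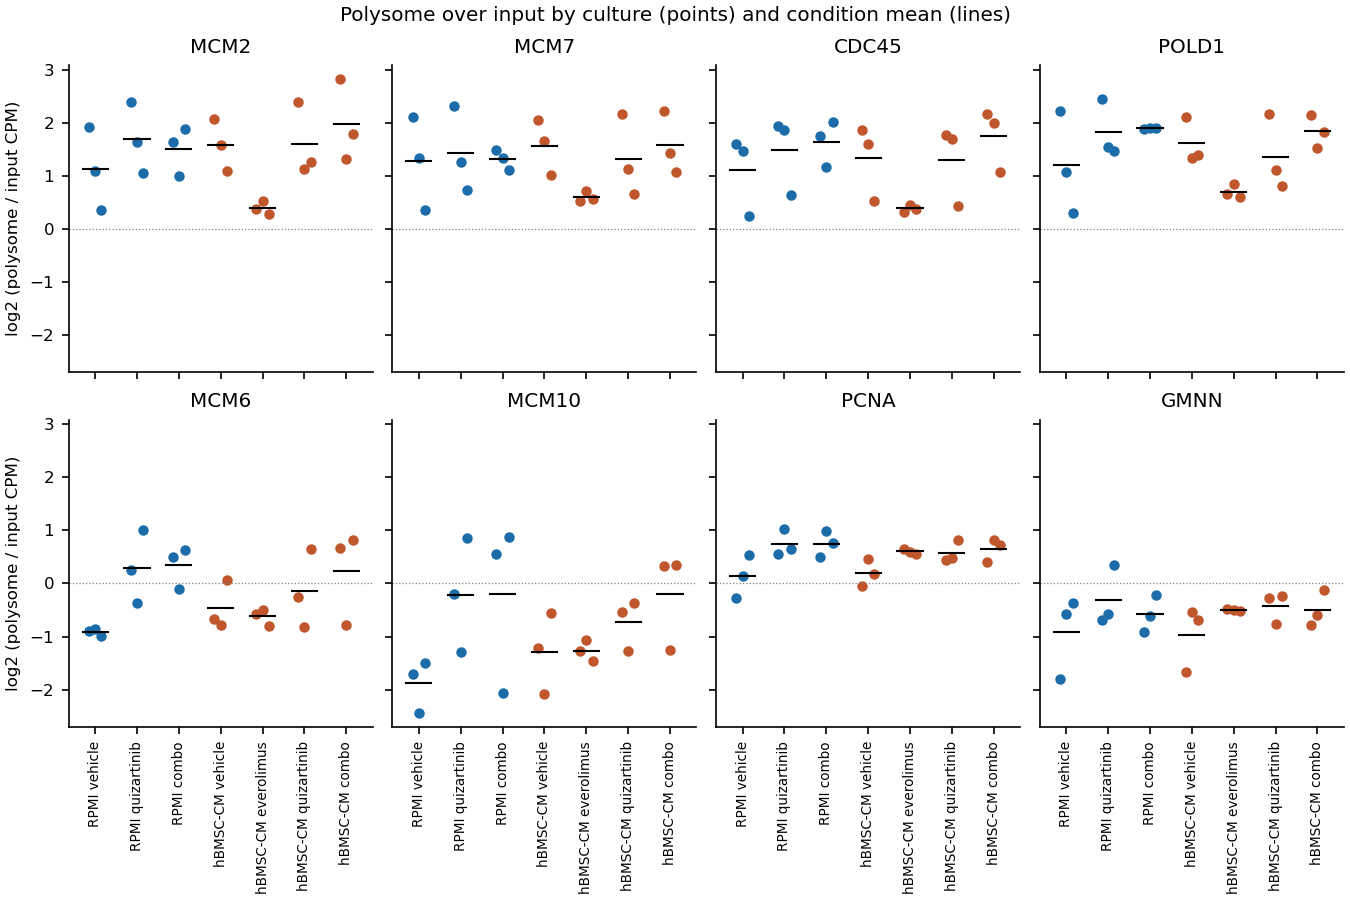
Log2 polysome over input in each culture for MCM2, MCM7, CDC45, POLD1, MCM6, MCM10, PCNA and GMNN over the 7 conditions; each point is 1 of 3 cultures. In MCM2, MCM7, CDC45 and POLD1 the everolimus cultures lie below the hBMSC-CM vehicle cultures, and in MCM6 the RPMI vehicle cultures, at -0.99 to -0.85, lie below those of RPMI quizartinib, at -0.38 to 1.00.

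Other genes of DNA replication, a list of 26 that holds none of the 52, were looked at beside them. Of the 25 tested, 16 were lower and 1 was higher under quizartinib in RPMI (median -0.93), and 10 were lower in hBMSC-CM (median -0.66). Of all tested genes 18% were called lower in RPMI and 6.84% in hBMSC-CM, and 2149 of the 12939 were called higher in RPMI. EXO1, an exonuclease, and CHEK1, the checkpoint kinase that claspin serves, fell by 2.31 and 2.02 in RPMI, and POLD4, the smallest subunit of polymerase delta, rose by 1.84. Under quizartinib EXO1 was the single gene of the list called higher in hBMSC-CM than in RPMI, where 6.11% of all tested genes were.

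Among 18 E2F and RB regulators 15 were lower under quizartinib in RPMI (median -1.38) and 8 in hBMSC-CM (median -0.92). Of all tested genes 18% and 6.84% were called lower in these comparisons. E2F1, an activating E2F, fell by 3.08 in RPMI and 1.48 in hBMSC-CM, CCNE1, which encodes cyclin E1, by 3.02 and 1.94, and CDC25A, the phosphatase that activates CDK2, by 3.20 and 1.76. The media difference in this effect was called for E2F1 (1.6, edgeR adjusted p = 0.0354) and CDC25A (1.44, adjusted p = 0.00651), where 1.79% of all tested genes were called higher. RB1, RBL2 and TFDP2 were the 3 of the list above 0 in RPMI, none of them called. Under quizartinib 5 of the 18 were called higher in hBMSC-CM than in RPMI, where 6.11% of all tested genes were. For comparison, 0 of both lists were called between the media without drug, where 1.51% of all tested genes were called in either direction.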

How the data were processed

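The authors deposited 1 table of raw counts per gene for all 42 libraries (58884 rows), with no normalization. Per the study's methods and the submitters' processing notes, reads from poly(A) libraries were trimmed with BBDuk and aligned with STAR 2.6.0a to hg38 with Ensembl release 96 genes. Whether counting used strand is not given in the sources used here. Samples were grouped by the labels, and the genes and lists described here were chosen with earlier results of these data known.

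Counts were scaled with TMM factors (1.06 to 1.25 in input, 0.705 to 1.04 in polysomes) and fitted in edgeR 4.0.16 (R 4.3.3) with robust quasi-likelihood over all 14 groups of condition and fraction. Testing was limited to genes whose mean over the libraries reached 1 count and 1 CPM (12939 genes, 99.8% of counts), and Benjamini-Hochberg adjusted p below 0.05 was a call. Fold changes are edgeR's log2 estimates, their SE was taken from the quasi-likelihood F statistic, and ratios of polysome to input per culture use log2 CPM with a prior count of 2. A polysome shift is the change in polysomes minus that in input. limma 3.58.1 (voom) and DESeq2 1.42.0, other scalings and filters, a replicate block and leaving out each culture were the alternatives. The fit was tested on simulated counts for quizartinib in hBMSC-CM, where it recovered 39% of 2-fold and 99% of 4-fold changes in input and 9% and 73% in the polysome shift. Outside the added changes, the simulated libraries shared the mean of each gene and a fixed spread, with no replicate effect. These rates need not hold for the spread of the real cultures. With a median of 30.2 M counts per library, the spread between cultures limits precision more than counting does. The common biological coefficient of variation was 0.279, taken over all 42 libraries of both fractions with no replicate term. In input alone the median coefficient of variation of the 51 genes ran from 5.42% with everolimus to 18.0% with combo, both in hBMSC-CM.

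Same-numbered cultures deviated together, with correlations of 0.156 to 0.715 in every comparison but everolimus against vehicle (-0.09 to 0.03), so blocked values are given beside the results whose call or count they change, other than everolimus. The lowest, replicate 1 in polysomes for combo against quizartinib in RPMI, lay below the highest correlation between differently numbered cultures there (0.214). Pairing comes from the replicate numbers in the labels and this check.

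Named throughout were 26 genes (MCM2, MCM5, MCM10, CDC6, CDT1, GMNN, ORC1, CDC45, GINS2, PCNA, RFC1, RFC3, POLA1, POLE2, PRIM1, RPA1, FEN1, RRM1, RRM2, TYMS, TK1, DUT, CLSPN, UHRF1, DNMT1 and SLBP) and the 3 largest rises and falls of each comparison. Any other gene named was chosen after its values were seen. Promoters came from RefSeq tables and gene structures from GENCODE.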

Additional observations from a re-analysis of the deposited data

Results flagged for a closer look

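The quizartinib effect on input RNA differed between the media for 6 of the 51 tested replication genes, by a test of the difference itself (edgeR quasi-likelihood, Benjamini-Hochberg adjusted). On the log2 scale the effect in hBMSC-CM minus that in RPMI was 1.69 for MCM4 (adjusted p = 0.000451), 1.56 for MCM6 (adjusted p = 0.0272), 1.69 for CDC6 (adjusted p = 0.0244), 1.51 for GINS2 (adjusted p = 0.00857), 1.52 for FEN1 (adjusted p = 0.00227) and 1.10 for CHAF1A (adjusted p = 0.0343). In each of the 6 all 3 quizartinib cultures in hBMSC-CM lay above all 3 in RPMI. Only groups of 4 or more samples were looked at for single samples that stand apart, and every group here has 3.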

How the results depend on the processing

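Counts here are of the 51 tested replication genes unless another unit is named. No call changed direction under any alternative run. The counts for quizartinib against vehicle ran from 46 to 46 in RPMI and from 26 to 40 in hBMSC-CM when single cultures were left out. For combo against quizartinib in hBMSC-CM the 1 call became 4 with DESeq2, 3 with no filter, 3 with the stricter filter and 0 with only the groups compared, and 0 to 4 with single cultures left out (0 without combo replicate 1 or 3 or quizartinib replicate 2 or 3, 2 without combo replicate 2 or RPMI quizartinib replicate 3, 4 without quizartinib replicate 1). The media difference in the quizartinib effect went from 6 to 3 with library size only, to 13 with only the groups compared, and to 3 to 7 with single cultures left out. For the polysome shift under quizartinib in RPMI, no filter gave 1. In these cases the cause was not tested.

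The replicate block, which pairs same-numbered cultures, gave 4 for combo in hBMSC-CM, 11 for the media difference and 4 for the polysome shift in RPMI. Within each fraction, the replicate block gave 1 between the media without drug, 25 between the media under quizartinib, 9 for combo in hBMSC-CM, 18 for the media difference and 16 for the polysome shift in RPMI. The everolimus cultures share only a number with their vehicle, and there the block gave 1 (FEN1) and, within each fraction, 4. Over all tested genes both blocks also raised the everolimus calls, with the counts in the next paragraph. The block changed no other count by more than 1.5 times.

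Counts over all tested genes moved by more than 1.5 times in these cases. The replicate block moved the calls for quizartinib in hBMSC-CM from 1591 to 2678, between the media without drug from 195 to 373, for combo in hBMSC-CM from 31 to 154, for everolimus from 53 to 244, for the media difference from 254 to 455 and for the polysome shift in RPMI from 201 to 491. Within each fraction these were 3803, 585, 380, 675, 876 and 1513, and 2275 instead of 1056 between the media under quizartinib. DESeq2 gave 293 without drug, 102 for combo in hBMSC-CM, 164 for everolimus and 389 for that polysome shift, limma voom gave 105 for everolimus, and no filter gave 80 and 96 for combo in hBMSC-CM and everolimus and 14 instead of 1 for combo in RPMI. Fitting only the groups compared gave 105 without drug, 0 for combo in hBMSC-CM and 415 for the media difference, and library size only gave 18 for combo in hBMSC-CM. Where the main count of polysome shifts was 0, the alternatives gave at most 19.

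Library size only moved the median polysome shift of all genes under quizartinib in RPMI from 0.15 to 0.38. RNASEH2A was left out by the filter and, with no filter, had 0 calls (log2 fold change -2.13 ± 0.89 under quizartinib in RPMI, edgeR adjusted p = 0.112).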
